A study of Mus musculus with 15 samples.

Results

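The genes described here are 39 genes of the cell cycle and of DNA replication, measured in livers of mice labelled with a hepatocyte loss of the transcription factor gene Gata4. They were chosen by symbol from knowledge of the pathway, but with earlier results of these data known. Each of the 39 symbols matched 1 row of the 24965 genes in the authors' deposited table. They comprise 8 cyclins, 4 cyclin-dependent kinases (CDKs), 2 CDK inhibitors, 5 transcriptional regulators (Rb1, the E2F genes and Foxm1), 8 genes of replication licensing, 4 genes of the replication fork and nucleotide supply, and 8 genes of mitosis.

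All mice were male C57BL/6J animals of 9 weeks with both Gata4 alleles floxed, so that the controls carried the floxed alleles too. The tested livers were labelled Gata4LKO (4 fasted, 3 refed) and came from mice that had received AAV8-Tbg-Cre, a virus that drives Cre from the hepatocyte-active Tbg promoter. Livers labelled Control (4 fasted, 4 refed) came from mice given an empty AAV8, so the presence of Cre cannot be told apart from the loss of Gata4. Virus was given at 8 weeks of age, and livers were collected 7 days later, after 12 h of fasting or after 12 h of fasting and 12 h of refeeding with a high sucrose diet (69% sucrose, 10% fat). The deposited table holds 1 comparison and no values per liver. It was read as fasted Gata4LKO minus fasted Control livers, 4 against 4, in a model that also took in the 7 refed livers. A second reading, refed minus fasted livers labelled Control, met the deposited values as closely and was set aside because the table is named for genotype. The same genotype comparison with every sign reversed, fasted Control minus fasted Gata4LKO, met the values less closely, within 4.4e-05 rather than 1e-06, and was not taken. Every direction below rests on these choices, and refed livers were not compared here.

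Gata4 itself (ENSMUSG00000021944, chromosome 14, 63198922 to 63271692, GRCm38) was not lower in livers labelled Gata4LKO, with a log2 fold change of 0.31 ± 0.15 (SE) and an adjusted p of 0.361 in the authors' deposited table, at a mean of 326.9 normalized counts. Which exons are floxed is not stated in the labels, so reads summed over all exons cannot show whether some of them were lost. The groups are therefore named by their labels throughout. Albumin (Alb), which defines hepatocytes, had a mean of about 1107000 normalized counts in the authors' deposited table. In whole liver RNA, fewer cells of a type and less RNA per cell cannot be told apart.

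Cells divide by passing through a cycle in which D-type cyclins with Cdk4 or Cdk6, and then cyclin E with Cdk2, phosphorylate the retinoblastoma protein and release E2F factors. E2F factors turn on the genes that license, start and feed DNA replication, and a later wave, driven in part by Foxm1, supplies the kinases and cyclins of mitosis. Adult hepatocytes rest outside this cycle, re-enter it after injury or partial removal of the liver, and are often polyploid, so that low levels of the late genes are the usual state of this tissue.

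None of the 39 genes passed the test between livers labelled Gata4LKO and livers labelled Control. Of the 39, 30 had an adjusted p in the authors' deposited table, and 0 of these 30 were called at an adjusted p under 0.05 (Benjamini-Hochberg adjustment of the DESeq2 Wald test run by the authors). Of all 13335 tested genes 2.19% were called, 0.585% higher and 1.60% lower. At an unadjusted p under 0.05 there were 5 of 30 genes (16.7%), where 11.4% of all tested genes reached it, 5.17% with higher and 6.21% with lower estimates. The 5 were the cyclin gene Ccnd2, with a higher estimate, and the licensing genes Mcm3, Mcm4, Mcm5 and Cdt1, with lower estimates in livers labelled Gata4LKO. With 2.19% of genes called in all, a count of 0 among 30 genes lies near the background, and so is not a result particular to these genes. At an adjusted p under 0.1 it was 1 of 30, Ccnd2, beside 3.25% of all tested genes (0.990% higher, 2.26% lower). The median log2 fold change of the 30 genes was -0.12, with 11 estimates above and 19 below 0, beside a median of 0.01 over all tested genes. The median over all 39 genes was -0.05, and it was 0.08 over the 12 genes with a mean of at least 100 normalized counts, so that its sign depended on which genes were taken.

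**Figure D1:**
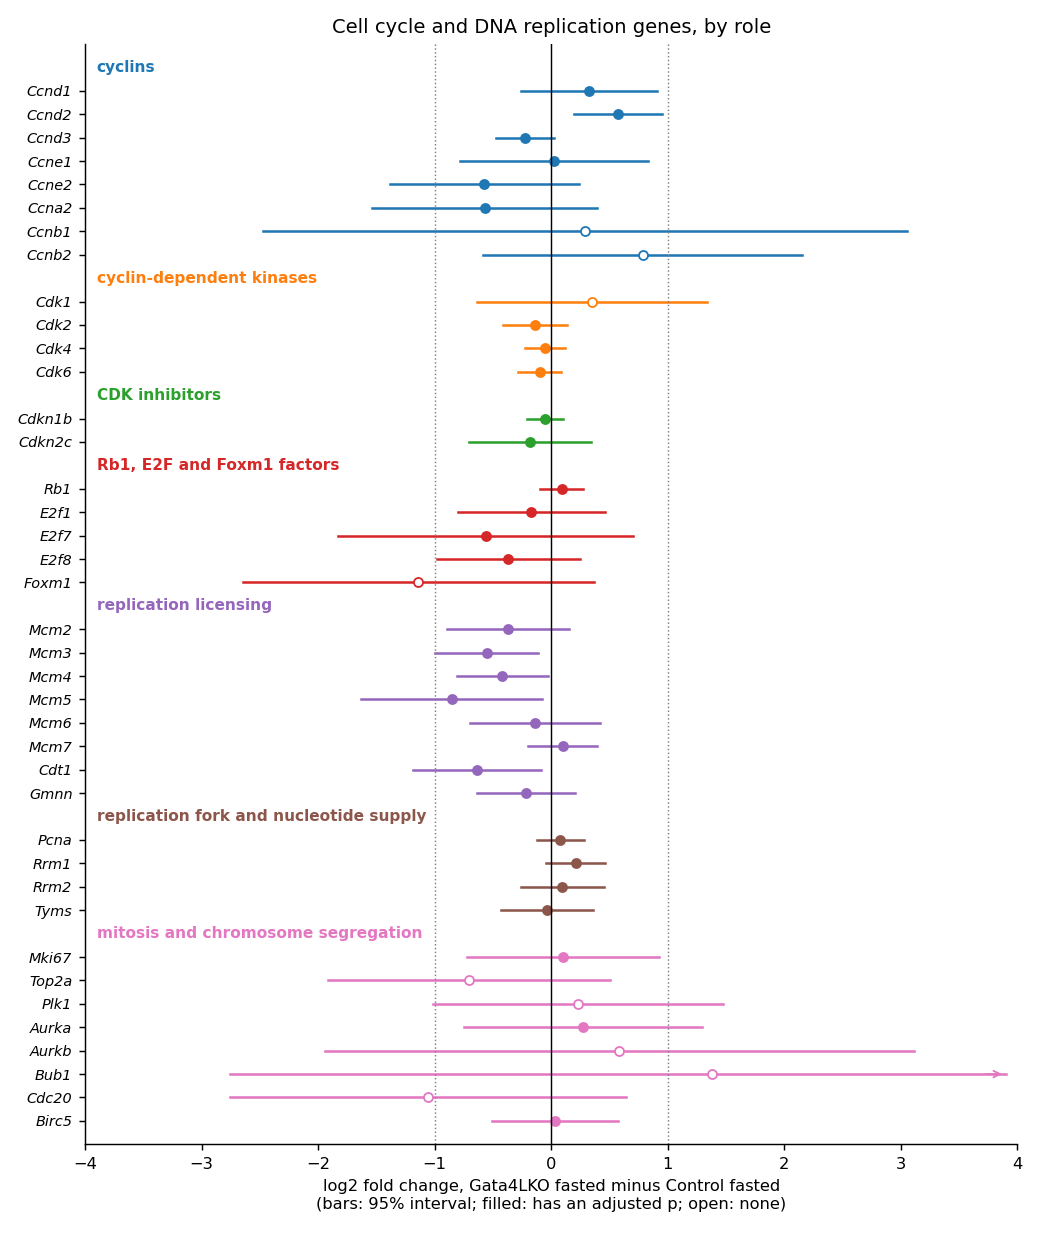
Log2 fold change of each of the 39 genes (fasted Gata4LKO minus fasted Control livers, horizontal axis) with its 95% interval (bar), grouped by role; filled points have an adjusted p and open points have none, and dotted lines mark -1 and 1. The interval leaves out 0 for 5 filled points, namely Ccnd2 above 0 and Mcm3, Mcm4, Mcm5 and Cdt1 below it, and the interval of Bub1 runs past the axis to 5.51.

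Replication licensing was the role with the most genes at an unadjusted p under 0.05, 4 of 8, beside 11.4% of all tested genes, while 0 of 8 were called, beside 2.19%. Licensing loads a ring of the 6 subunits Mcm2 to Mcm7, the core of the replicative helicase, onto origins of replication. Cdt1 brings the ring to the origin, and geminin, encoded by Gmnn, binds Cdt1 and blocks it. All 8 genes had an adjusted p, 7 had negative and 1 had positive estimates, and their median log2 fold change was -0.39.

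The 4 licensing genes with the lowest p lay within a narrow range of p and at low abundance. Mcm3 (ENSMUSG00000041859, chromosome 1, 20802968 to 20820312) had a log2 fold change of -0.55 ± 0.22 (SE) per the authors' deposited table, with p of 0.0136 and an adjusted p of 0.238. That is 0.681 of the level in livers labelled Control, with a 95% interval from 0.502 to 0.924. Cdt1 (ENSMUSG00000006585, chromosome 8, 122568015 to 122573554) stood at -0.64 ± 0.28 (SE) per the authors' deposited table, with p of 0.0222 and an adjusted p of 0.301. Mcm5 (ENSMUSG00000005410, chromosome 8, 75109569 to 75128439) had the largest negative estimate among the 30 genes, -0.85 ± 0.40 (SE), with p of 0.0311 and an adjusted p of 0.352 in the authors' deposited table. Mcm4 (ENSMUSG00000022673, chromosome 16, 15623897 to 15637400) stood at -0.42 ± 0.20 (SE), with p of 0.0367 and an adjusted p of 0.383 in the authors' deposited table. Ordered by p among the 13335 tested genes, Mcm3 was number 762, Cdt1 number 984, Mcm5 number 1176 and Mcm4 number 1276. Their mean abundances in the authors' deposited table were 71.4 normalized counts for Mcm3, 50.8 for Cdt1, 30.1 for Mcm5 and 71.0 for Mcm4.

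The other licensing genes were not set apart in the same way. Mcm2, at -0.37 ± 0.27 (SE), and Gmnn, at -0.22 ± 0.21 (SE), had negative estimates in the authors' deposited table with intervals that took in 0. Mcm6 stood at -0.14 ± 0.28 (SE) per the authors' deposited table. Mcm7, the most abundant subunit per length of exon, stood at 0.10 ± 0.15 (SE) per the authors' deposited table, with a 95% interval from -0.20 to 0.40. Mcm7 was thus the 1 subunit of 6 with a positive estimate. Whether subunits differed from one another was not tested, because the table gives no covariance between genes.

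The start regions of Mcm3, Mcm5 and Cdt1 are shown because these genes had the lower estimates and an entry in the RefSeq promoter table (GRCm38.p6); Mcm4 and Ccnd2 were not matched, and 30 of the 39 genes were. Each line gives the 250 bases that precede the RefSeq start site, 5′ to 3′ on the strand of the gene, at chr1:20820313-20820562 (minus strand) for Mcm3, chr8:75109259-75109508 (plus strand) for Mcm5 and chr8:122567765-122568014 (plus strand) for Cdt1. For Mcm5 the GENCODE gene start lies 60 bases from the RefSeq start site. Capitals mark matches on either strand to CCAAT (read as ATTGG on the other strand) or to TTGGCGC (read as GCGCCAA). No other searched motif lies in these stretches, and that of Cdt1 holds none.
Mcm3: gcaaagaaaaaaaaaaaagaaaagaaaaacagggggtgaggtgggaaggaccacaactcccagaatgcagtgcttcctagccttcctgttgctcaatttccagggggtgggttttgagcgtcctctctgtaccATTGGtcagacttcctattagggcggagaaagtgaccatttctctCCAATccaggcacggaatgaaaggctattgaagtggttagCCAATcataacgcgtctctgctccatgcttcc
Mcm5: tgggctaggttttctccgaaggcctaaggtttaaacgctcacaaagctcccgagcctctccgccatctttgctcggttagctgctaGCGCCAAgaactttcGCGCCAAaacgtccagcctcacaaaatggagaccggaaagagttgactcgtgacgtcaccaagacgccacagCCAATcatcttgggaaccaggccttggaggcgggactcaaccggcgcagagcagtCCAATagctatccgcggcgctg
Cdt1: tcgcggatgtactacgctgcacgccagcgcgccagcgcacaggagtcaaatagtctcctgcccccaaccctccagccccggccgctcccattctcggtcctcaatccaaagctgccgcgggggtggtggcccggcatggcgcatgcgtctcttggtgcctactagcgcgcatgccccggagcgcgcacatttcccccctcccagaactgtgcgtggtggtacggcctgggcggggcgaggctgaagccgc

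The motif search covered 5 short motifs on both strands of a window from 250 bases before to 50 bases after each start site, in 27025 promoters. E2F sites were searched as GCGGGAA and as TTGGCGC, the second of which was added after these promoters had been seen. GCGGGAA stood in 7 of the 30 matched cell cycle promoters (23.3%) and in 4.66% of all promoters. TTGGCGC stood in 10 of 30 (33.3%) and in 2.54% of all promoters. CCAAT stood in 21 of 30 (70.0%) and in 37.9% of all promoters. TTTGAA, the core of the cell cycle homology region through which late cell cycle genes are held off in resting cells, stood in 9 of 30 (30%) and in 18.1% of all promoters. GATAA, the only form of the GATA site searched, stood in 1 of 30 (3.33%) and in 25.8% of all promoters. None of these shares was adjusted for the base composition of the promoters. In Mcm3 and in Cdt1 the E2F matches lay after the start site, with GCGGGAA beginning at base 20 for Mcm3 and 19 for Cdt1, outside the bases printed above. A match is a description of letters and shows no binding.

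Cyclins included the gene with the lowest p of the 39. Ccnd2 (ENSMUSG00000000184, chromosome 6, 127125162 to 127152193), a D-type cyclin, had a log2 fold change of 0.57 ± 0.19 (SE) at a mean of 142.1 normalized counts in the authors' deposited table. Its p was 0.00288 and its adjusted p 0.0926, so that it was not called, although it was number 415 of the 13335 tested genes in order of p. In fold terms the estimate was 1.49, with a 95% interval from 1.15 to 1.93. Of the other D-type cyclins, Ccnd1 had a positive and Ccnd3 a negative estimate, at 0.33 ± 0.30 (SE) and -0.22 ± 0.13 (SE) per the authors' deposited table. The interval of Ccnd1, from -0.26 to 0.91, took in the estimate of Ccnd2, and differences between the cyclins were not tested.

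The E-type cyclins, which act with Cdk2 at the onset of replication, were measured at few reads. Ccne1 stood at 0.03 ± 0.41 (SE) and Ccne2 at -0.57 ± 0.41 (SE) per the authors' deposited table. Ccna2, the cyclin of replication and of entry into mitosis, stood at -0.57 ± 0.49 (SE) with a mean of 9.02 normalized counts in the authors' deposited table. The mitotic cyclins Ccnb1 and Ccnb2 had no adjusted p, at means of 1.15 and 5.94 normalized counts by the authors' deposited table. The log2 fold changes there were 0.29 ± 1.41 (SE) for Ccnb1 and 0.79 ± 0.70 (SE) for Ccnb2, and both intervals took in 0 and 1.

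The CDKs of the first part of the cycle were among the most precisely measured of the 39 genes. Cdk4 and Cdk6, the partners of the D-type cyclins, stood at -0.05 ± 0.09 (SE) and -0.10 ± 0.09 (SE) per the authors' deposited table. Their 95% intervals, from -0.22 to 0.12 and from -0.28 to 0.09, left out a change of 0.5 on the log2 scale in either direction; the count of Cdk4 may hold reads of Tspan31, an abundant neighbour. For Cdk2 the estimate was -0.14 ± 0.14 (SE) per the authors' deposited table, with an interval from -0.42 to 0.14. Cdk1, the kinase of mitosis, had no adjusted p at a mean of 7.52 normalized counts, and its log2 fold change was 0.35 ± 0.50 (SE) per the authors' deposited table.

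Brakes of the cycle were likewise not called. Cdkn1b, which encodes the inhibitor p27, stood at -0.05 ± 0.08 (SE) per the authors' deposited table, the smallest error of the 39 genes. Cdkn2c, an inhibitor of Cdk4 and Cdk6, stood at -0.18 ± 0.27 (SE) per the authors' deposited table. Rb1, the retinoblastoma gene, stood at 0.09 ± 0.09 (SE) per the authors' deposited table, with a 95% interval from -0.09 to 0.27. Cdkn1a, which encodes the inhibitor p21 and is a target of p53, is not among the 39 genes; it stood at 0.97 ± 0.54 (SE) with p of 0.0745 and an adjusted p of 0.510 in the authors' deposited table.

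The E2F and Foxm1 genes had negative estimates throughout, with intervals that took in 0. E2f1, an activating E2F, stood at -0.17 ± 0.32 (SE) per the authors' deposited table. The atypical repressors E2f7 and E2f8, known for their part in the polyploidy of hepatocytes, stood at -0.56 ± 0.65 (SE) and -0.37 ± 0.31 (SE) per the authors' deposited table. Foxm1, at a mean of 4.004 normalized counts and with no adjusted p, stood at -1.14 ± 0.77 (SE) per the authors' deposited table.

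Genes of the replication fork and of nucleotide supply stood close to 0. Pcna, the sliding clamp of the DNA polymerases, had a log2 fold change of 0.08 ± 0.10 (SE) per the authors' deposited table. Rrm1 and Rrm2, the subunits of ribonucleotide reductase, stood at 0.21 ± 0.13 (SE) and 0.10 ± 0.18 (SE), and Tyms, thymidylate synthase, at -0.04 ± 0.20 (SE) per the authors' deposited table. All 4 of their 95% intervals lay between -0.5 and 0.5 on the log2 scale, the widest negative bound being -0.43 for Tyms and the widest positive one 0.46 for Rrm1. Of the 8 licensing intervals only that of Mcm7 did so.

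Mitotic genes were close to the limit of detection. Their means in the authors' deposited table ran between 0.691 normalized counts for Bub1, a spindle checkpoint kinase, and 17.9 for Birc5, which encodes survivin. Over all 15 libraries Bub1 summed to 10.4 normalized counts, Ccnb1 to 17.3 and Aurkb to 19.7. Of the 8 genes 3 had an adjusted p, and 0 of these 3 had an unadjusted p under 0.05, beside 11.4% of all tested genes. Mki67, the proliferation marker Ki-67, stood at 0.10 ± 0.42 (SE), Birc5 at 0.03 ± 0.28 (SE) and the centrosomal kinase gene Aurka at 0.27 ± 0.52 (SE) per the authors' deposited table. Birc5 was the best determined of the 3, with an interval from -0.51 to 0.57.

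The mitotic genes without an adjusted p pointed both ways. Top2a, the topoisomerase of replicating cells, stood at -0.71 ± 0.62 (SE) and Cdc20, which activates the anaphase-promoting complex, at -1.06 ± 0.87 (SE) per the authors' deposited table. Plk1 and Aurkb, kinases of mitosis, stood at 0.23 ± 0.63 (SE) and 0.58 ± 1.29 (SE), and Bub1 at 1.38 ± 2.11 (SE), per the authors' deposited table. Each of these 5 intervals took in 0 and reached beyond 1 or -1 on the log2 scale. A change of that size in at least 1 direction was thus not excluded for any of them at these counts.

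Per length of exon, the mean levels of the 39 genes spread widely, with Cdk4, Pcna, Rrm2 and Cdkn1b at the top. Mean normalized counts per kilobase of GENCODE M21 exon were 124.0 for Cdk4, 104.6 for Pcna, 84.5 for Rrm2 and 81.0 for Cdkn1b. They were 40.9 for Mcm7, 19.8 for Mcm4, 19.0 for Mcm3 and 7.53 for Mcm5. At the low end stood Mki67 with 1.51, Top2a with 0.868, Ccnb1 with 0.274 and Bub1 with 0.159 per kilobase. These are means over all 15 libraries from the authors' deposited table, fasted and refed together, and no spread over livers can be attached to them or to their order.

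**Figure D2:**
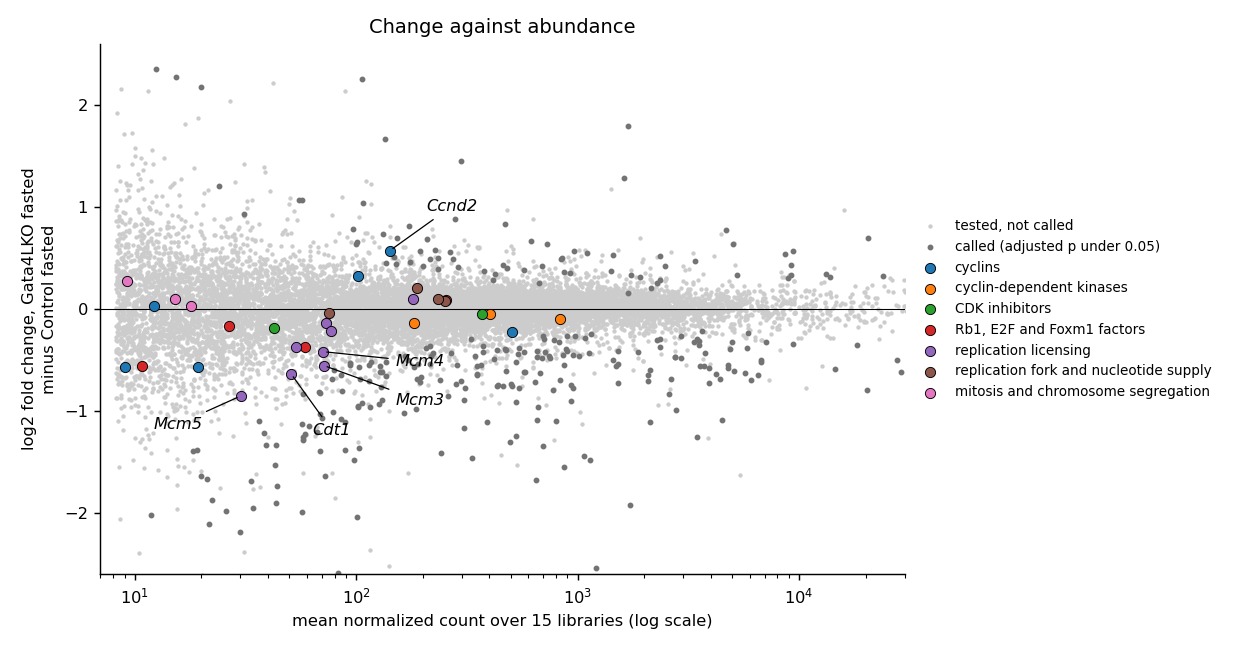
Log2 fold change (fasted Gata4LKO minus fasted Control livers, vertical axis) against mean normalized count over 15 libraries (log axis) for all tested genes (light points), called genes (dark points) and the 30 cell cycle genes with an adjusted p (coloured by role); 78 tested genes lie outside the axes. The named genes are the 5 with an unadjusted p under 0.05, and none of the 30 is called.

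How small a change could have passed varied with abundance and with the spread between livers. The smallest Wald statistic of a called gene in the authors' deposited table was 3.27 in size, and 21 of the 30 genes had an error small enough for a change of less than 1 on the log2 scale to reach it. For Cdkn1b a change of 0.25 would have reached it, for Mcm3 0.73, for Ccnd1 0.97, for Mcm5 1.29 and for Mki67 1.37. Of all 39 genes, 24 had a 95% interval that lay between -1 and 1, and 11 had one between -0.5 and 0.5.

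Errors of these genes exceeded counting error, by a median ratio close to that of all tested genes, which were more abundant. Counting error alone was computed for 4 against 4 livers at the mean of each gene. The deposited errors were a median of 1.81 times that error over the 30 genes and 1.91 times over all tested genes. The median abundance was 72.4 normalized counts for the 30 genes and 236.3 for all tested genes. The ratios were not compared at equal abundance, so they do not show that the spread between livers was alike. The highest ratios among the 30 were 2.96 for Ccnd1, 2.79 for Ccnd3 and 2.72 for Rrm2, and the lowest was 1.15 for Birc5. Since 1 dispersion per gene was fitted over fasted and refed livers, these ratios describe the spread in all 4 groups together.

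**Figure D3:**
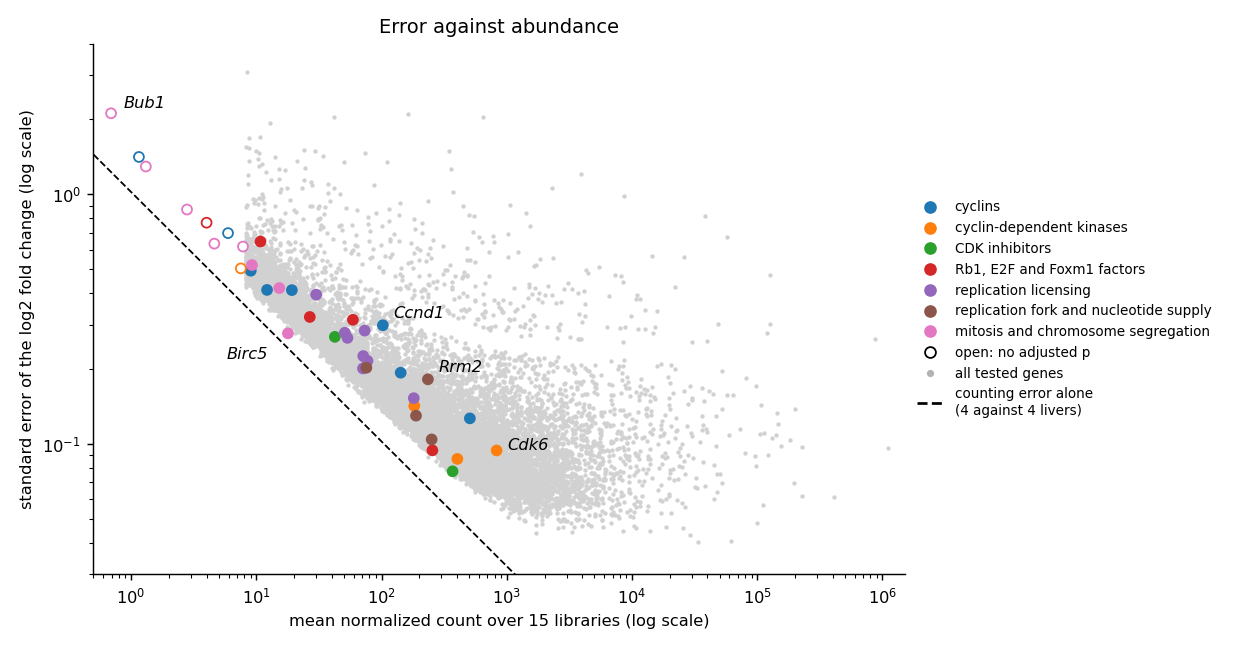
Standard error of the log2 fold change (log axis) against mean normalized count over 15 libraries (log axis) for all tested genes (grey) and the 39 cell cycle genes (coloured by role, open where there is no adjusted p); the dashed line is the error from counting alone for 4 against 4 livers. Ccnd1 and Rrm2 lie farther above the line, at 2.96 and 2.72 times the counting error, than Birc5, at 1.15 times.

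The wider cell cycle gave 1 called gene, a share near that of all tested genes. Beyond the 39 genes, 3 lists with 103 further symbols were read, of which 102 had a row and 75 an adjusted p in the authors' deposited table. Of these 75, 1 rose, 0 fell and 74 did not pass, where 2.19% of all tested genes were called, 0.585% higher and 1.60% lower. There were 7 with an unadjusted p under 0.05 (9.33%, where 11.4% of all tested genes had one). The median log2 fold change of the 75 was -0.01, with 37 estimates above and 38 below 0.

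The called gene was Ccng1, which encodes cyclin G1, a target of p53, in the list of further CDK inhibitors, pocket proteins, E2F and DREAM subunits, cyclins and kinases. It rose in livers labelled Gata4LKO, with a log2 fold change of 0.57 ± 0.15 (SE) and an adjusted p of 0.0148 in the authors' deposited table. Of the 21 tested genes of that list, 1 rose and 20 did not pass, beside 0.585% higher and 2.19% called in either direction among all tested genes. Lin52, a subunit of the DREAM complex, stood at -0.36 ± 0.16 (SE), and E2f3, an activating E2F, at -0.31 ± 0.15 (SE) per the authors' deposited table, neither of them called.

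Among 36 tested genes of DNA replication beyond the licensing genes above, 0 passed the DESeq2 Wald test of the authors and 2 (5.56%) had an unadjusted p under 0.05, in opposite directions, where 2.19% and 11.4% of all tested genes did. Dbf4, the activating subunit of the Cdc7 kinase that fires origins, stood at 0.68 ± 0.33 (SE) per the authors' deposited table. Gins1, of the GINS part of the active helicase, stood at -0.54 ± 0.27 (SE) per the authors' deposited table. Next in order of p were Pole, of DNA polymerase epsilon, at -0.53 ± 0.28 (SE), and the DNA ligase gene Lig1, at -0.60 ± 0.32 (SE), per the authors' deposited table. The median of the list was -0.02, with 17 estimates above and 19 below 0, against -0.39 for the 8 licensing genes; the difference between lists was not tested.

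Among 18 tested further genes of mitosis, 0 passed the DESeq2 Wald test of the authors and 2 (11.1%) had an unadjusted p under 0.05, where 2.19% and 11.4% of all tested genes did. Of the 39 listed, 21 had no adjusted p. Spc25, of the kinetochore, stood at 0.61 ± 0.20 (SE) with an adjusted p of 0.0659 in the authors' deposited table. Wee1, the kinase that holds Cdk1 inactive and a gene under clock control in liver, stood at -0.93 ± 0.31 (SE) with an adjusted p of 0.0823 in the authors' deposited table. Smc4, of condensin, and Cdc25b, a phosphatase that activates Cdk1, followed at -0.21 ± 0.11 (SE) and -0.60 ± 0.44 (SE) per the authors' deposited table.

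**Figure D4:**
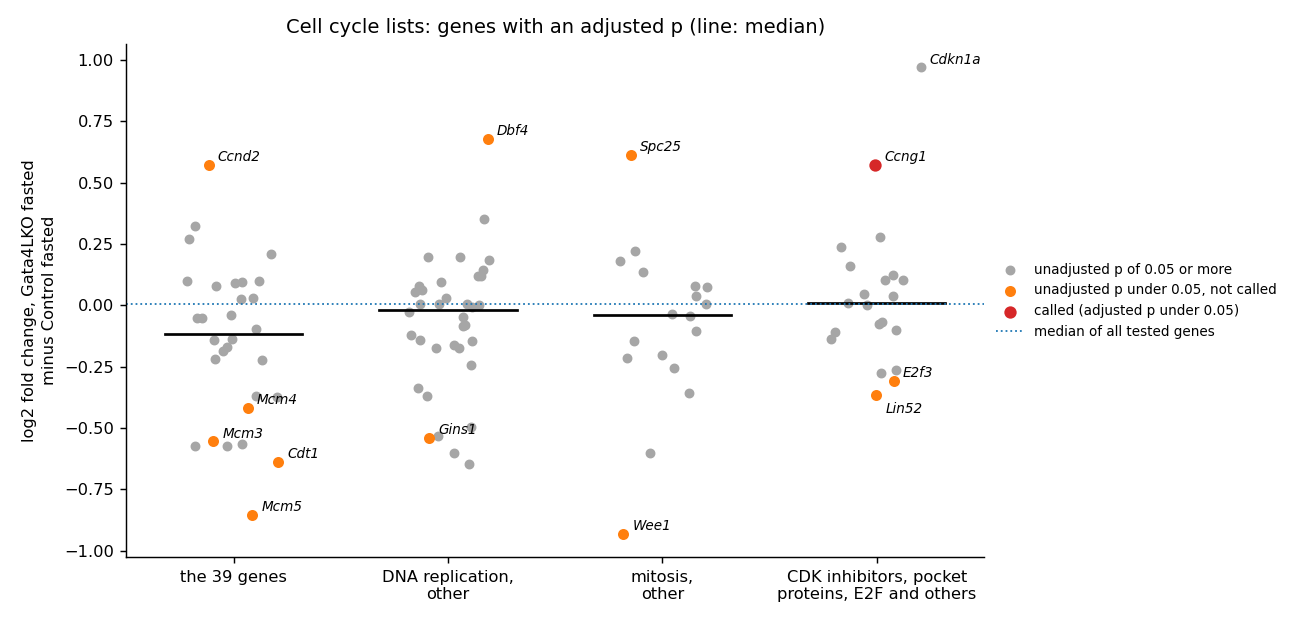
Log2 fold change (fasted Gata4LKO minus fasted Control livers, vertical axis) of genes with an adjusted p in the 39 genes and in 3 further cell cycle lists; black lines are list medians, and the dotted line is the median of all tested genes. Ccng1, in red, is the called gene, and the medians of the 4 lists are -0.12, -0.02, -0.04 and 0.01, from left to right.

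Markers of the cell types that a liver sample can hold were read beside these values, since dividing cells in a resting liver need not be hepatocytes. For comparison with the counts below, 2.19% of all tested genes were called and 11.4% had an unadjusted p under 0.05. All 9 Kupffer cell and macrophage markers had negative estimates, between -0.54 and -0.12 on the log2 scale with a median of -0.29, and 0 passed the DESeq2 Wald test of the authors, with 2 at an unadjusted p under 0.05. Their means summed to 1768 normalized counts. The 7 sinusoidal endothelial markers had 4 positive and 3 negative estimates, between -0.71 and 0.25, with a median of 0.20 and 0 called, 2 of them at an unadjusted p under 0.05. Of 9 lymphocyte markers 3 had an adjusted p and 0 were called, with 1 at an unadjusted p under 0.05, 1 positive and 2 negative estimates and a median of -0.12. Over all 9, the median was -0.05, with 3 positive and 6 negative estimates. The 5 neutrophil markers had no adjusted p and summed to 13.9 normalized counts. The 5 tested erythroid markers had 2 positive and 3 negative estimates and a median of -0.03, with 1 at an unadjusted p under 0.05. Of these, 1 fell, Alas2, the erythroid form of the first enzyme of heme synthesis, at -0.41 ± 0.12 (SE) per the authors' deposited table, while the globin genes Hbb-bs and Hbb-bt, which did not pass, stood there at -0.03 ± 0.37 (SE) and 0.30 ± 0.31 (SE). The 8 hepatocyte markers had a median of 0.08, with 1 called, Apoa1, at -0.48 ± 0.11 (SE) per the authors' deposited table. Of the 8, 2 had an unadjusted p under 0.05, 1 with a higher and 1 with a lower estimate. The 6 stellate cell and 4 tested cholangiocyte markers had 0 called and 0 at an unadjusted p under 0.05, with medians of -0.01 and 0.05. The part of these cells in the values of the 39 genes was not tested.

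Some of the 39 genes share exon sequence with a neighbour on the opposite strand, and whether reads were counted by strand is not given in the sources used here. Ccnd1 shares 23.4% of its exon bases with the gene listed as LTO1, Cdk4 shares 19.7% with Tspan31, Ccne2 17.4% with Ints8, Ccna2 12.5% with Exosc9, E2f8 11.2% with Gm2788, Rb1 8.11% with Rcbtb2 and 6.78% with Lpar6, Mcm7 7.25% with Ap4m1 and Plk1 7.09% with Gm44985. Tspan31 had a mean of 4443 normalized counts, above the 402.9 of Cdk4, in the authors' deposited table. Exosc9 had 278.6 there against 9.02 for Ccna2, and Ints8 369.2 against 19.2 for Ccne2. Cdc20, with a mean of 2.80, shares a smaller part of its exon bases, 2.84%, with Elovl1, which had a mean of 460.5. Reads of such a neighbour could enter the count of the gene. The values of these genes are therefore uncertain, above all where the neighbour is far more abundant than the gene. Mcm3, Mcm4, Mcm5 and Cdt1 share no exon bases with another gene in GENCODE M21, and Ccnd2 shares at most 3.95%, with Gm43126.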

How the data were processed

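RNA was measured in 15 mouse livers. Per the labels' protocols, TRIzol and an RNeasy kit gave the RNA, and the KAPA Stranded kit the libraries. Per the submitters' processing notes, FastQC, STAR 2.6.0c, mm10 and DESeq2 were used. The read counter, whether it used strand, and its annotation were not given in the sources used here. Per the file headers, the deposited table gives a mean expression signal (counts divided by size factors, averaged over libraries by the authors), a log2 fold change, the standard error of it, a Wald score, and p-values with adjusted p-values. Of 24965 genes, 13335 had an adjusted p, with a lowest mean of 8.20 normalized counts, and 11605 had a p only; missing values stayed missing. The planned test on the deposited comparison was used, and no gene was retested by another model.

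The compared groups were worked out from genes with 1 read in 1 library. The 15 distinct means of such genes gave relative size factors between 0.912 and 1.11, and their log2 fold changes fell into sets of 4, 4, 4 and 3 libraries. A negative binomial fit with a weak ridge (1e-06) and a floor of 0.5 on the means was run under 16 readings. The deposited values were met within 1e-06 by 2 of them, both with an interaction term and with fasted Control as the baseline group. These 2 are fasted Gata4LKO minus fasted Control, and refed minus fasted Control livers, which single reads cannot separate. The next closest differed by 4.4e-05 and were the same 2 comparisons with the direction reversed. With the genotype comparison so reversed, the estimate of Gata4 would be lower in livers labelled Gata4LKO. Since genotype is in the name of the deposited result, fasted Gata4LKO minus fasted Control was taken, in the direction that met the values more closely. Fasn and Pnpla3, which feeding raises in liver, and Pck1, which it lowers, had log2 fold changes of -0.77 ± 0.18, 1.25 ± 1.34 and 0.01 ± 0.82 (SE) in the authors' deposited table. The estimate of Pnpla3 thus lies in the direction of feeding, with an interval that takes in 0. That of Pck1 lies near 0, with an interval from -1.59 to 1.61. That of Fasn lies in the direction opposite to feeding and was called, with an adjusted p of 0.003 in the DESeq2 Wald test of the authors.

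From the deposited values, 95% intervals (estimate ± normal quantile × SE), counting errors, Benjamini-Hochberg adjustments and counts per list were computed with Python 3.11.15, numpy 2.4.6, pandas 2.3.3 and scipy 1.17.1, and tested on simulated data. A gene was called at a deposited adjusted p under 0.05. Exon lengths and positions came from GENCODE M21 (GRCm38), matched for 198 of 199 listed genes. The genes and lists were chosen with earlier results of these data known. Named genes were all 39, Gata4, Cdkn1a, Ccng1, and of each further list the called genes and the 4 of smallest p. Fasn, Pnpla3, Pck1, the neighbours Tspan31, Exosc9, Ints8 and Elovl1, and single marker genes were picked with their values known. The motif TTGGCGC was added to the planned 4 afterwards. Each label gives 1 liver a sample, and p-values measure the spread between these livers; titles carry 1 number for each group, unexplained in the labels, and whatever it stands for cannot be told apart from the group.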

Additional observations from a re-analysis of the deposited data

How the results depend on the processing

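Over the 39 genes the count of called genes stayed at 0 when p-values were adjusted over all genes that have one, over genes averaging at least 10 or at least 100 normalized counts or over protein-coding genes, and after centring on the median of tested genes (0.01). With a threshold of 0.1, where 3.25% of all tested genes are called, it was 1, Ccnd2, and the count of further mitosis genes was 2, Spc25 and Wee1, against 0. The counts for further DNA replication genes (0) and for the list with Ccng1 (1) were the same under all 6 alternatives. Centring changed the sign of 0 of the estimates of the 30 genes with an adjusted p. No paired analysis was possible because the comparison comes without values of single livers, which also kept fits without 1 liver from being run. Low counts limit the mitotic genes most, as 5 of these 8 had no adjusted p. Of all 39 genes, 9 had no adjusted p, and 11 had a mean under 10 normalized counts.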
